A study of Mus musculus with 12 samples.

Results

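T cells that infiltrate the pancreatic islets of NOD mice, a strain with spontaneous autoimmune diabetes, were divided by whether their T cell receptor β chain recurred between libraries. A receptor was the TRB V gene together with the CDR3 amino acid sequence, the stretch across the V(D)J junction that touches the peptide. It was called public when found in at least 2 of the 4 libraries and private when found in 1. Cells with exactly 1 productive TRB CDR3 nucleotide sequence were used. Of 11102 distinct receptors, 155 (1.40%) were public, and they were carried by 1116 of 16089 cells (6.94%). The other 10947 receptors, on 14973 cells, were private.

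The cells came from islets of pre-diabetic female NOD mice at 12 weeks of age and had been sorted as live cells positive for the β chain. From each of 4 biological replicates, the same droplets yielded mRNA and antibody counts on the one hand and receptor sequences on the other. Whether a replicate came from 1 mouse or from pooled mice is not stated. No animal was treated or genetically altered, and public and private cells were compared within the same library. A public receptor stands in at least 2 libraries, so the libraries share members and are not fully independent.

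The public side held 126, 142, 526 and 322 cells in replicates 1 to 4, and the private side held 4234, 2783, 3712 and 4244 cells. By distinct receptor the public side held 87, 60, 87 and 85, and the private side 3308, 1943, 2771 and 2925. Replicate 3 thus had the most public cells without having more public receptors than replicate 1. A median of 3964 RNA UMIs (unique molecular identifiers, tags that mark single captured molecules) was counted per cell in the 15881 cells that passed the filters. The 188 barcodes found in the contig tables of more than 1 library were left out, so that no cell could make a receptor public by standing in several libraries. The T cell genes Cd3d, Cd3e, Cd3g, Trac, Cd4, Cd8a and Cd8b1 were summed as a description. The cells had been selected by a TRB chain, a Cd3 UMI and the CD4 antibody, so these genes give no independent check of identity. Their summed level was 3772 to 4573 CPM (UMI counts scaled to a common library total) in public CD4 cells, against 3719 to 4053 CPM in private CD4 cells.

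A β chain is built by joining a V, a D and a J segment of the TRB locus while bases are trimmed and random bases are added at the joints. Different rearrangements can therefore encode the same amino acid sequence, a property called convergent recombination, and sequences close to the germline segments are made more often than sequences with many added bases. Public receptors are known from many immune responses and from unselected repertoires. In NOD islets, CD4 and CD8 T cells specific for β-cell antigens such as insulin accumulate before diabetes begins.

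The public receptor found in all 4 libraries joined TRBV19 to TRBJ2-7 with a CDR3 of 14 amino acids. It had 5 nucleotide versions in 12 cells, none shared between libraries. The CDR3 of each version is shown 5′ to 3′ as deposited, because these sequences show how the same chain was encoded differently in each library. Capitals mark the 6 positions at which the versions differ.
TRBV19, 7 cells of replicate 2: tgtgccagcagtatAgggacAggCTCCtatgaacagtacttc
TRBV19, 2 cells of replicate 1: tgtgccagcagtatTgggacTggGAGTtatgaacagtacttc
TRBV19, 1 cell of replicate 3: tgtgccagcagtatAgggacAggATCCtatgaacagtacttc
TRBV19, 1 cell of replicate 4: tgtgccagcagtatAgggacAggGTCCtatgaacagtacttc
TRBV19, another cell of replicate 4: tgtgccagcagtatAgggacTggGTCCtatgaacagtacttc
All 12 cells lay in the CD4 gate. All 12 carried a TRAV5-4 to TRAJ53 α chain. The TRAV5D-4 to TRAJ53 combination is known from NOD islet T cell clones that recognize the insulin B chain.

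A TRBV16 to TRBJ2-1 receptor of 15 amino acids had 4 versions in 11 cells of replicates 2, 3 and 4. It is shown because each version was confined to a single library. Capitals mark the 2 positions that differ.
TRBV16, 4 cells of replicate 2: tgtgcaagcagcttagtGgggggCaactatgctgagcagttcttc
TRBV16, 4 cells of replicate 3: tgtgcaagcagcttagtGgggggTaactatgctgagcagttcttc
TRBV16, 2 cells of replicate 4: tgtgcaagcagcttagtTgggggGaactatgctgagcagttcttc
TRBV16, another cell of replicate 4: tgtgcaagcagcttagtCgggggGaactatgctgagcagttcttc
All 11 cells were in the CD4 gate. TRAV8D-1 to TRAJ50 was the partner in the cells of replicate 2 (4 of 4) and in 3 cells of replicate 3, while the cells of replicate 4 had other partners.

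The 3 public receptors with over 50 cells, singled out after their cell numbers were seen, are shown because they made up 521 of the 1116 public cells (46.7%). Capitals mark the positions that differ within each receptor.
TRBV16 to TRBJ1-4, 307 cells of replicate 3: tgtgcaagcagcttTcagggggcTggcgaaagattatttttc
TRBV16 to TRBJ1-4, 29 cells of replicate 4: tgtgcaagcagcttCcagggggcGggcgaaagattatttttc
TRBV13-3 to TRBJ2-4, 41 cells of replicate 3 and 58 of replicate 4: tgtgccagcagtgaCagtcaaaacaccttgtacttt
TRBV13-3 to TRBJ2-4, 3 cells of replicate 4: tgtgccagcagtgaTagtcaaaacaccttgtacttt
TRBV15 to TRBJ2-7, 82 cells of replicate 4: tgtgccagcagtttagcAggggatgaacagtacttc
TRBV15 to TRBJ2-7, 1 cell of replicate 3: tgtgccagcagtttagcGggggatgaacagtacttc
The TRBV16 receptor was a CD8 receptor in 282 cells, with TRAV6N-7 to TRAJ53 as its main partner in replicate 3 and TRAV5-4 to TRAJ50 in replicate 4. The TRBV13-3 receptor was in the CD8 gate in 88 cells, and all 85 of its cells with a TRA chain had TRAV16N to TRAJ42. A TRAV16 to TRAJ42 α chain is known from NOD CD8 T cells that recognize IGRP, a glucose-6-phosphatase subunit of β cells. The TRBV15 receptor was in the CD4 gate in 79 cells, and its partner differed between the libraries.

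Most sharing was between 2 libraries: 147 receptors stood in 2, 7 in 3 and 1 in 4. Each pair of libraries shared 20 to 38 receptors, between 0.589% and 1.33% of the receptors of either library. No nucleotide sequence was common to libraries in 121 public receptors (78.1%), and 34 had a nucleotide sequence in at least 2 libraries. Over all libraries 27 public receptors had 1 nucleotide version, 116 had 2, 9 had 3, 2 had 4 and 1 had 5. Public receptors hold at least 2 cells by definition, so these totals were not compared with private receptors. Most public receptors were small: 99 had 2 cells, 43 had 3 to 10 and 10 had 11 to 50. Of the last group, a TRBV15 to TRBJ2-7 receptor of 12 amino acids had 29 cells in replicate 2 and 1 in replicate 1, and all 30 carried TRAV13-4-DV7 to TRAJ49. A TRBV12-2+TRBV13-2 to TRBJ2-7 receptor of 13 amino acids was spread more evenly, with 11 cells in replicate 2 and 9 in replicate 3.

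Within single libraries, where cells of other libraries add nothing, public receptors more often had several nucleotide versions. Among receptors with at least 2 cells in a library, 3 of 14, 3 of 16, 2 of 23 and 7 of 26 public receptors had several versions in replicates 1 to 4, against 17 of 373, 6 of 252, 12 of 330 and 14 of 343 private receptors. The share averaged 18.9% ± 7.64 for public and 3.66% ± 0.935 for private receptors (SD, n = 4 libraries). It was higher for public receptors in 4 of 4 libraries, by 15.3 percentage points, with p = 0.125 in a two-sided exact permutation test over libraries. With 4 paired libraries 0.125 is the smallest p this test can give, so no comparison of this kind could pass 0.05. The 2 sides were not matched on cells per receptor, and more cells give more chances to show several versions. Cells per nucleotide clone averaged 1.38, 2.25, 5.91 and 3.50 on the public side in replicates 1 to 4, against 1.27, 1.43, 1.33 and 1.44 on the private side.

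Public CDR3 regions were shorter. The mean length was 13.6, 13.6, 13.4 and 13.3 amino acids for public receptors in replicates 1 to 4, against 14.0, 14.0, 14.0 and 13.9 for private receptors. The groups did not overlap, and the difference was -0.52 amino acids with an SD of 0.136 over libraries (exact permutation p = 0.125, the smallest possible). Without replicate 4 it was -0.293 amino acids. Receptors of 9 to 12 amino acids made up 22.1% ± 4.35 of public and 14.4% ± 0.457 of private receptors (SD, n = 4). Receptors of 15 amino acids made up 13.7% ± 2.73 of public and 22.01% ± 0.42 of private receptors.

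**Figure D1:**
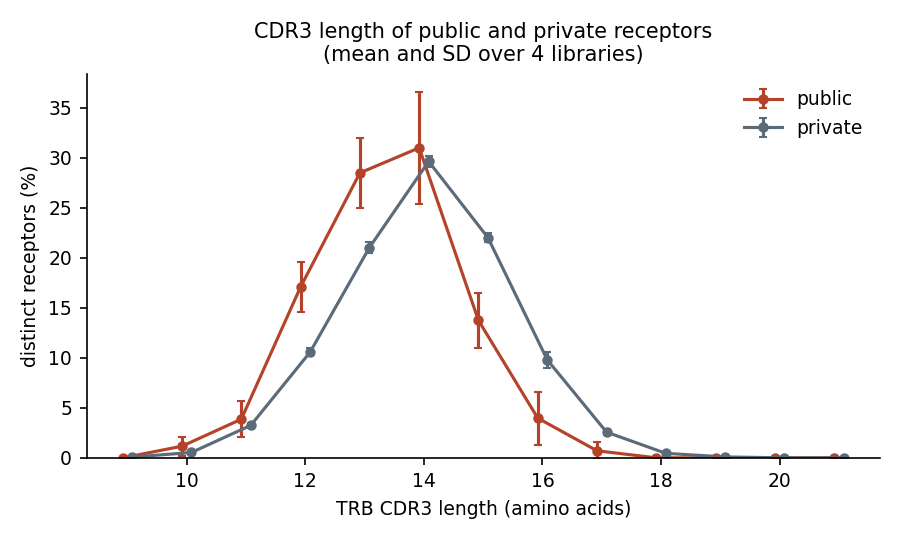
Distribution of TRB CDR3 length, in amino acids, as the percentage of distinct receptors. Points are means and bars SD over the 4 libraries, and the public curve lies above the private one at 12 and 13 amino acids and below it at 15 and 16.

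The junctions themselves were shorter too. The V-J gap, the CDR3 bases matched by neither the usual start of the V gene nor the usual end of the J gene, holds the D segment and added bases. It averaged 10.1, 9.83, 9.83 and 9.52 bases for public nucleotide clones in replicates 1 to 4, against 11.9, 11.9, 11.8 and 11.9 bases for private clones. The public values all lay below the private ones, with a mean difference of -2.04 bases and an SD of 0.229 (exact permutation p = 0.125, the smallest possible). Averaged over its versions, the gap of a public receptor ran from 1 base, in a TRBV12-2+TRBV13-2 to TRBJ2-7 receptor of 10 amino acids, to 17.5 bases, in a TRBV10 to TRBJ2-1 receptor of 16 amino acids. It was 14 bases in the TRBV19 receptor of all 4 libraries. Public receptors with no nucleotide sequence in common averaged 10.02 bases, and those with a common nucleotide sequence 8.68 bases.

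Public clones were larger. A nucleotide clone was a V gene and CDR3 nucleotide sequence within a library. Of public clones, 14 of 91, 16 of 63, 21 of 89 and 23 of 92 had at least 2 cells in replicates 1 to 4, against 363 of 3329, 246 of 1949, 321 of 2783 and 336 of 2940 private clones. These shares averaged 22.3% ± 4.70 for public and 11.6% ± 0.721 for private clones (SD, n = 4). The share was higher for public clones in 4 of 4 libraries, by 10.7 percentage points (exact permutation p = 0.125, the smallest possible). With receptors matched on CDR3 amino acids alone the difference was 3.44 percentage points. The largest clone held 11, 29, 307 and 82 cells on the public side and 68, 42, 67 and 107 cells on the private side, so large clones were not confined to public receptors.

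**Figure D2:**
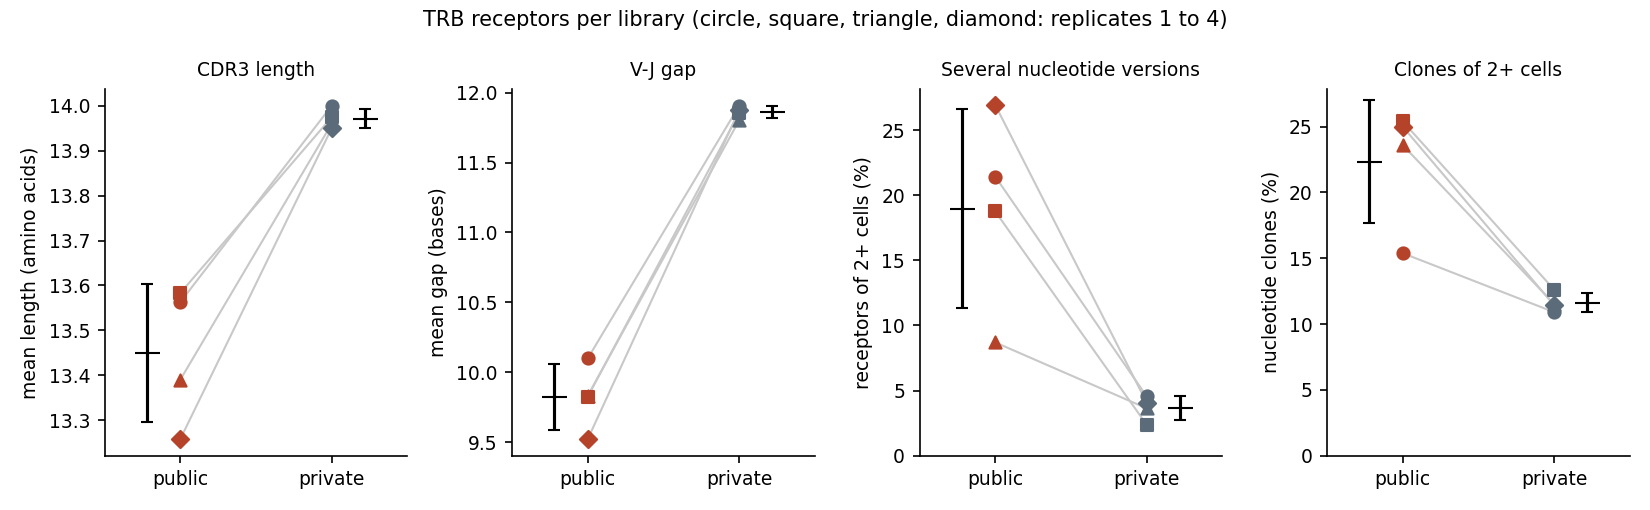
Public and private values of each library for mean CDR3 length in amino acids, mean V-J gap in bases, the percentage of receptors with several nucleotide versions and the percentage of nucleotide clones with at least 2 cells. Lines join the 2 sides of a library and bars show mean and SD, and in every panel all 4 libraries moved the same way. The axes of the 2 left panels do not start at 0.

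Segment use differed as well. The V gene is part of the rule that made a receptor public, so V use is not independent of the 2 sides. A public receptor was also counted in each library that held it, and a private receptor in 1 library only. The 4 libraries are therefore not separate observations here, and the p-values for segments describe the shares rather than test them. Of 21 V genes tested on distinct receptors, 3 passed an adjusted p under 0.05 in edgeR's quasi-likelihood test (14.3%), 2 higher (9.52%) and 1 lower (4.76%) on the public side. TRBV15 (GRCm38.p6 chr6:41141211-41141658 in RefSeq) accounted for 10.3%, 13.3%, 12.6% and 10.6% of public receptors in replicates 1 to 4, against 4.50%, 4.89%, 4.66% and 5.33% of private receptors. Its share was higher in every library, with a log2 ratio of 1.26 ± 0.26 (SE) and an edgeR adjusted p of 0.000149. TRBV1 (chr6:40891296-40891885) also rose, to 14.0% ± 5.20 of public receptors against 7.12% ± 0.398 of private receptors (SD, n = 4), with an edgeR adjusted p of 0.000604. Without replicate 4 the TRBV1 log2 ratio was -0.009. With cells in place of receptors, 0 V genes were called higher and 13 lower, and for the TRBV15 share of receptors the log2 ratio was then 1.23 with an edgeR adjusted p of 0.121. TRBV2 (chr6:41047556-41047995) fell to 1.28% ± 0.973 of public receptors, against 5.11% ± 0.298 of private receptors (edgeR adjusted p = 0.00209). The most used V name on the public side was the ambiguous TRBV12-2+TRBV13-2 of the contig tables, with 17.3% ± 1.63 of public and 12.6% ± 0.296 of private receptors (edgeR adjusted p = 0.0824). TRBV5 followed with 14.2% ± 2.44 of public and 9.26% ± 0.50 of private receptors (edgeR adjusted p = 0.0531).

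Of 12 J genes, 4 passed (33.3%), 1 higher (8.33%) and 3 lower (25%). The end of the CDR3 comes from the J gene, so J use is not independent of the rule either. Public receptors were again counted in each library that held them. TRBJ2-7 (chr6:41543810-41543856) was used by 33.3%, 23.3%, 35.6% and 41.2% of public receptors in replicates 1 to 4, against 20.9%, 20.4%, 21.3% and 21.8% of private receptors. All public shares exceeded all private shares, with a log2 ratio of 0.69 ± 0.19 (SE) and an edgeR adjusted p of 0.00591. TRBJ2-5 fell to 5.58% ± 2.49 of public receptors, against 12.5% ± 0.704 of private receptors, and TRBJ1-4 to 3.03% ± 1.34 against 7.42% ± 0.428. TRBJ1-5 fell to 0.575% ± 0.664, against 2.50% ± 0.209 (edgeR adjusted p = 0.0378). TRBJ2-3 (14.4% ± 3.20 against 9.97% ± 0.709, edgeR adjusted p = 0.0657) and TRBJ1-1 (12.5% ± 3.92 against 9.78% ± 0.610, edgeR adjusted p = 0.262) were the next most used J genes of public receptors and did not pass. Without replicate 3 the adjusted p of every J gene tested was above 0.05.

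The α chain was not used to call a receptor public, so it gives an independent view. Of the 155 public receptors, 124 had a TRA chain read in at least 2 libraries. The same TRAV and TRAJ recurred in 24 of these, the same TRA CDR3 amino acid sequence in 18 and the same TRA nucleotide sequence in 9. A receptor counted if any TRA chain of any of its cells recurred, so receptors with many cells had more chances. The large TRBV16 to TRBJ1-4 receptor counted among the 24 and the 18, though its main partners differed between replicates 3 and 4. Only 2 public receptors, TRBV13-3 of 12 amino acids and a TRBV13-1 receptor, had an identical pair of TRB and TRA nucleotide sequences in 2 libraries. Counted over pairs of receptor entries from different libraries, the TRAV and TRAJ matched in 26 of 155 pairs with the same TRB receptor (16.8%), against 0.106% of 29248878 pairs with different TRB receptors. By library pair the matching share ran from 6.67% to 35.7% for the same TRB and from 0.0991% to 0.115% for different TRB. The TRA CDR3 amino acid sequence matched in 17 of 160 pairs with the same TRB (10.6%), against 0.0132% of pairs with different TRB. These shares are descriptions, since pairs share receptors and libraries.

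**Figure D3:**
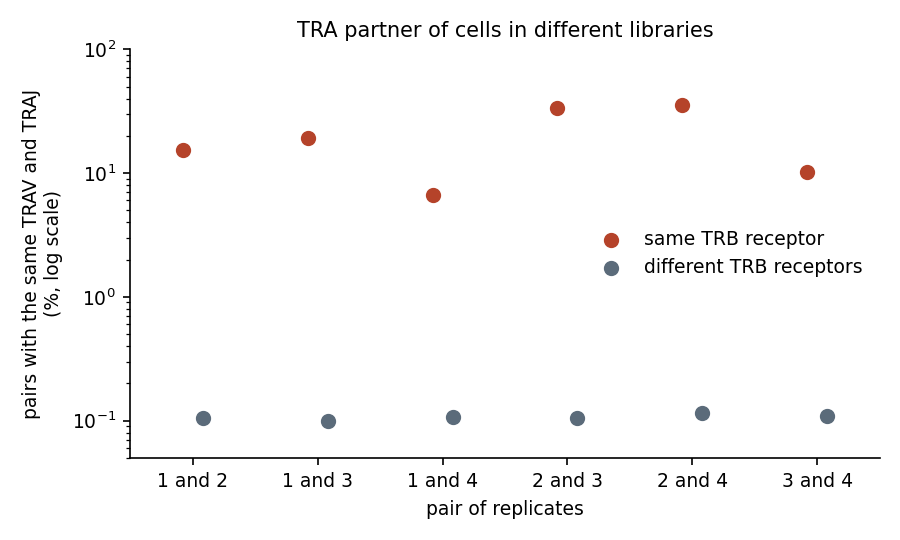
Percentage of pairs of receptor entries from different libraries that had the same TRAV and TRAJ, on a log scale, for each pair of replicates. Pairs with the same TRB receptor lie between 6.67% and 35.7% and pairs with different TRB receptors between 0.0991% and 0.115%.

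Of 946 public cells with a TRA chain, 31 (3.28%) had TRAV5-4 or TRAV5D-4 joined to TRAJ53, against 107 of 12458 private cells (0.859%). By distinct receptor this was 6 of 154 (3.90%) on the public side and 37 of 9294 (0.398%) on the private side. All 31 public cells were CD4 cells, and 3 of the 6 receptors used TRBV19. A TRAV16 family segment joined to TRAJ42 stood on 104 public cells (11.0%) of 5 receptors, against 116 private cells (0.931%) of 32 receptors. Of those 104 cells 82 were in the CD8 gate. A receptor counted if any of its cells carried the combination. Public receptors hold at least 2 cells by definition, so they had more chances to count, and the receptor counts of the 2 sides are not like for like. These 2 combinations were chosen after the partners of the largest receptors had been seen, and no test was made.

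Lineage was read from the CD4 antibody (at least 40 counts) or, for CD8, from under 20 CD4 counts with at least 2 UMIs of Cd8a and Cd8b1. By cell, the CD4 share was 90.1%, 94.1%, 31.9% and 70.3% on the public side in replicates 1 to 4, against 75.6%, 76.2%, 81.5% and 78.1% on the private side. The public share was higher in replicates 1 and 2 and lower in replicates 3 and 4 (mean difference -6.25 percentage points, exact permutation p = 0.875). With 1 cell per clone the CD4 share was higher on the public side in 4 of 4 libraries, 89.0% on average against 80.0% on the private side (difference 9.001 percentage points, exact permutation p = 0.125). The cell kept was the one of its clone with the most RNA UMIs. Without the 3 receptors of over 50 cells it was 92.8% on the public side, against 77.8% on the private side. By receptor, 123 public receptors had CD4 cells only, 8 had CD8 cells only and 24 had both. Those with both include the large TRBV16 and TRBV13-3 receptors, with 12 and 1 cells in the CD4 gate beside 282 and 88 in the CD8 gate. Within single libraries, both lineages stood in 7 of 71 public receptor and library combinations with at least 2 gated cells. Among private receptors with at least 2 gated cells, 63 of 1004 had both. Of 137 public receptors gated in at least 2 libraries, 112 were CD4 in each library, 4 were CD8 in each, 19 were CD4 in some and CD8 in others, and 2 had a tie.

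**Figure D4:**
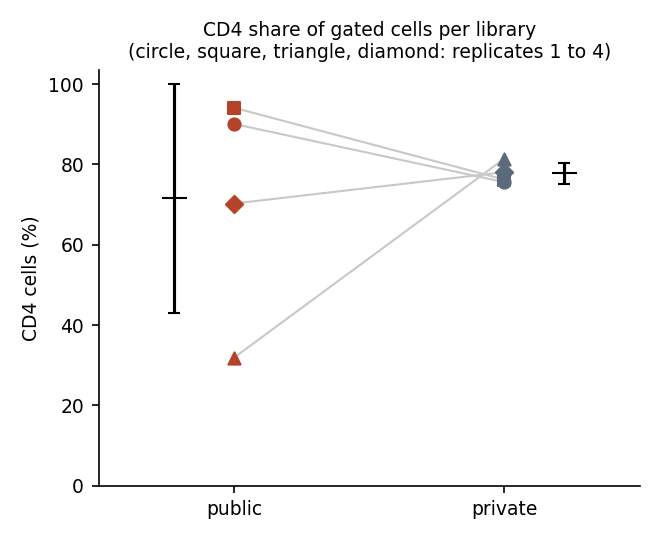
Percentage of CD4 cells among gated cells for the public and private side of each library. Lines join the 2 sides of a library and bars show mean and SD, and the public share was above the private one in replicates 1 and 2 and below it in replicates 3 and 4.

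Gene expression of public and private CD4 cells was compared on UMI sums per library, with 109, 128, 144 and 189 public cells in replicates 1 to 4 and 3022, 1983, 2688 and 2942 private cells. The public sums held 649829 to 1056642 UMIs and the private sums 12253148 to 16899754. The largest clone held 10.1%, 21.9%, 11.8% and 41.3% of public CD4 cells in replicates 1 to 4, against 1.8% to 2.3% of private CD4 cells. Public CD4 cells had more mRNA of follicular helper and exhaustion genes and less mRNA of naive and recirculation genes. Of 11194 genes, 289 passed an adjusted p under 0.05 in edgeR's quasi-likelihood test (2.58%), 105 higher (0.938%) and 184 lower (1.64%) in public cells. The lower genes include at least 12 with 0 UMIs in public cells. Such genes entered the test through the larger private sums alone and could only come out lower, so the 2 directions are not like for like. Without the replicate block, the term that pairs both sides of a library, 25 genes passed. Without replicate 3, 87 passed, without replicate 1 or without replicate 4, 160 passed in each case, and without the 3 receptors of over 50 cells 167 passed. The balance of directions also moved: 165 genes were higher and 158 lower with 1 cell per clone, 140 higher and 96 lower without cycling cells, and 89 higher and 71 lower without replicate 4. The setting with 1 cell per clone kept the cell with the most RNA UMIs, which is not a random cell of its clone. In simulated data the share of false calls was above the nominal level in most draws, so calls near the threshold are less certain than their adjusted p states.

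Il21, the cytokine of follicular helper cells (ENSMUSG00000027718, GRCm38.p6 chr3:37222759-37232636 in RefSeq), stood at 87.7, 177, 138 and 216 CPM in public CD4 cells of replicates 1 to 4, against 44.1, 51.7, 62.0 and 64.3 CPM in private CD4 cells. Every public value lay above every private value, and the log2 fold change was 1.46 ± 0.13 (SE, edgeR adjusted p = 0.000139). An Il21 UMI was found in 176 of 570 public CD4 cells (30.9%), against 1025 of 10635 private CD4 cells (9.64%). By replicate the public share was 17.4%, 40.6%, 27.8% and 34.4%, against 7.5% to 10.7% of private cells, and cells of the same clone are not independent. With 1 cell per clone the log2 fold change of Il21 in CD4 cells was 1.61 with an edgeR adjusted p of 0.219, and without receptors shared by nucleotide sequence it was 1.39 with an edgeR adjusted p of 0.149. Without the replicate block it was 1.51 (edgeR adjusted p = 0.0519).

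Of the 11 follicular helper genes, all of them tested, 7 rose and none fell, with a median log2 fold change of 0.53, against -0.01 over all genes. Besides Il21 these were the regulators Bcl6 (72 CPM in public cells against 42 CPM in private cells on average, log2 fold change 0.81), Maf (0.52), Ascl2 (1.497, higher in 3 of 4 libraries) and Tox2 (0.99), the surface protein Cd200 (0.74) and the signalling adaptor Sh2d1a (0.46). Cxcr5, the receptor that leads cells to B cell follicles, had a log2 fold change of 0.44 and did not pass (edgeR adjusted p = 0.216). With 1 cell per clone 4 of the 11 rose, and without the replicate block 1 rose.

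Of the 15 exhaustion genes 5 rose and none fell (median log2 fold change 0.52). Without the 3 receptors of over 50 cells the median was 0.25 and 4 rose, and without the replicate block 1 rose. Lag3, an inhibitory receptor, stood at 245, 379, 353 and 308 CPM in public CD4 cells, against 138, 224, 170 and 218 CPM in private CD4 cells. The public values all lay above the private ones, with a log2 fold change of 0.78 ± 0.09 (SE, edgeR adjusted p = 0.000143). Tigit (0.65) and Pdcd1 (0.77), which encode further inhibitory receptors, and the transcription factors Tox (0.57) and Tox2 rose as well. Pdcd1 was near the threshold, with an edgeR adjusted p of 0.0491. Havcr2 (0.47) and Ctla4 (0.22) did not pass.

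Of the 15 naive and recirculation genes 9 fell and none rose (median log2 fold change -0.83). Without the replicate block 0 of them passed (median -0.77), and without the 3 receptors of over 50 cells 7 fell (median -0.60). Lef1, a transcription factor of naive T cells, stood at 360, 147, 277 and 171 CPM in public CD4 cells, against 570, 343, 444 and 395 CPM in private CD4 cells. It was lower in the public cells of each library, with a log2 fold change of -0.93 ± 0.10 (SE, edgeR adjusted p = 0.000507). The chromatin organizer Satb1 (-1.12), the lymph node homing receptor Ccr7 (-0.83), the transcription factors Klf2 (-0.60), Bach2 (-0.60) and Foxp1 (-0.54), the egress receptor S1pr1 (-0.38), Actn1 (-0.72) and Als2cl (-1.10) fell too. Il7r had a log2 fold change of -0.86 (edgeR adjusted p = 0.0700) and Dapl1 of -0.99 (edgeR adjusted p = 0.24), and these did not pass. Tcf7, a factor of stem-like T cells, differed by 0.07 with an SE of 0.13 (edgeR adjusted p = 0.874).

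**Figure D5:**
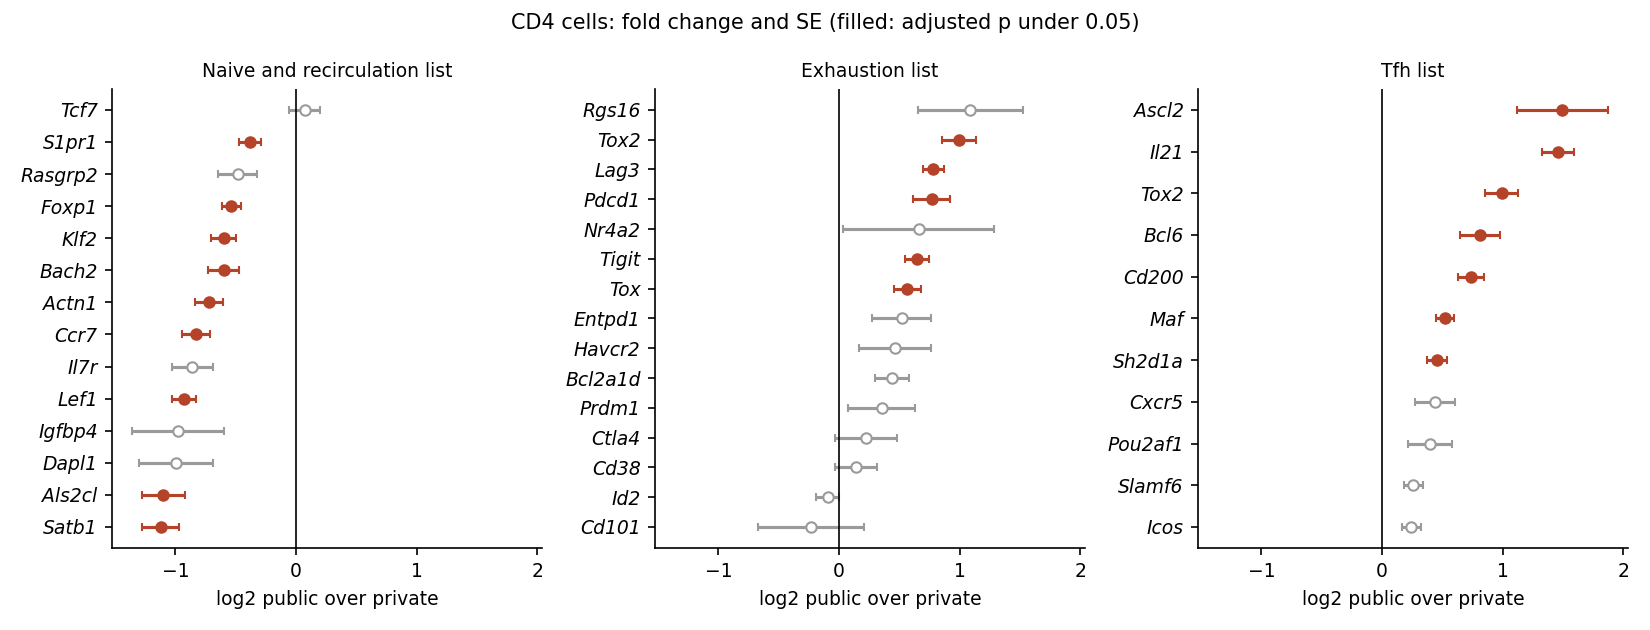
Log2 fold change of public over private CD4 cells for genes of the naive and recirculation, exhaustion and follicular helper lists. Points are edgeR estimates and bars their SE, and filled points passed an adjusted p under 0.05: 9, 5 and 7 genes of the 3 lists.

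In each of the other lists at most 2 genes passed. Over all genes tested 0.938% were called higher and 1.64% lower, the latter with genes at 0 UMIs in public cells included. In the regulatory T cell list 2 of 12 genes fell, Gpr83 (log2 fold change -1.95) and Ikzf4 (-0.88). Foxp3, the defining factor of regulatory T cells, averaged 23.3 CPM in public and 49.9 CPM in private CD4 cells and did not pass (log2 fold change -1.10 ± 0.44, edgeR adjusted p = 0.395). Of 9 Th1 genes only Stat4 rose (0.52), and Ifng (0.82, edgeR adjusted p = 0.108), Tbx21 (0.43) and Cxcr3 (0.22) did not pass. Nt5e, the ectoenzyme CD73 of anergic cells, rose (0.52), while the other 8 anergy genes tested did not pass, among them Izumo1r (0.09) and Egr2 (0.44). Of 13 cytotoxic, 9 T cell receptor signal and 10 interferon genes, 0 passed in edgeR's test and 0 in DESeq2, and 2, 1 and 5 had an unadjusted edgeR p under 0.05. The median log2 fold change was 0.62 for the cytotoxic genes in edgeR but -0.05 in DESeq2. It was -0.43 for the interferon genes, of which 1 lay above 0. Among them were Gzmb (-1.61), Gzmk (0.80), Nkg7 (0.50), Ccl5 (0.07), Xcl1 (0.64), Cd5 (0.06) and Nr4a1 (0.06). Other displayed genes of activation and residence did not pass: Slamf6 (0.26), Cd44 (0.25), Cxcr6 (0.20), Ikzf2 (0.03), Il2ra (-0.06) and Zbtb16 (-0.03). Of 10 dissociation genes 1 fell, Jun (-0.38), and of 7 innate-like genes tested 1 fell, Fcer1g. Without barcodes that held at least 2 UMIs of B cell, myeloid, endocrine or acinar markers, 0 genes of either list were called. The median of the innate-like genes was then 0.40, against -0.24 with all cells.

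Cycling and lineage purity moved with some of these results. At least 2 UMIs of cycling genes were found in 22.02%, 41.4%, 36.1% and 30.2% of public CD4 cells, against 18.4%, 19.9%, 17.7% and 17.6% of private CD4 cells. Of the 10 cycling genes Mcm6 rose (0.59) and the others, Mki67 included (0.35), did not pass. With 1 cell per clone, the cell with the most RNA UMIs, 6 of the 10 rose, and their median log2 fold change went from 0.36 to 0.66. Without cycling cells 5 exhaustion and 4 follicular helper genes rose and 8 naive and recirculation genes fell. Cd8a and Cd8b1 summed to 286.6 CPM in the public CD4 cells of replicate 3, where 11 cells of the large TRBV16 CD8 receptor fell into the CD4 gate, and lay between 12.3 and 37.9 CPM in the other public sums, against 45.9 to 93.9 CPM in private cells. Without CD4-gate cells that held at least 2 Cd8 UMIs 5 exhaustion and 8 follicular helper genes rose and 10 naive and recirculation genes fell.

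Among the genes called in CD4 cells that moved alike in all 4 libraries, the largest rises were in Col24a1 (2.10), Slc30a3 (1.94), Il21, Tex15 (1.28), 1700019D03Rik (1.26), Sccpdh (1.26), Plagl1 (1.20), Chn1 (1.19), Smpdl3b (1.19), Tox2, Trps1 (0.93) and Nek6 (0.92), all log2 fold changes. 1700019D03Rik stood at 106, 287, 178 and 143 CPM in public CD4 cells, against 60.5, 83.7, 69.1 and 74.4 CPM in private CD4 cells. Col24a1, Slc30a3 and Tex15 were low, with at most 19.1 CPM in any public sum, and their calls depended on single libraries. The value of Col24a1 in CD4 cells was 1.095 (edgeR adjusted p = 0.527) without replicate 1. Slc30a3 in CD4 cells did not pass without any 1 of the 4 replicates (edgeR adjusted p 0.0675 to 0.487). Tex15 in CD4 cells fell short in the same way, with 0.202 (edgeR adjusted p = 0.966) without replicate 4 and 0.103 (edgeR adjusted p = 0.967) with 1 cell per clone.

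The 12 largest falls were in C1qb, Tgfbi, Cd209a, H2-M2, C3, Clec4a3, Pf4, Fcgr3, Ccl6, Ccl12, Mrc1 and Pla2g7, most of them genes of macrophages and other myeloid cells. All 12 were at 0 UMIs in public CD4 cells, so they entered the test through the private side alone. C1qb was found in 0 of 570 public cells, which allows a share of up to 0.526%, and in 86 of 10635 private cells (0.809%). Those 86 cells held all 2482 of its UMIs, and so few cells give no firm fold. The 5 myeloid markers summed to 6.16 to 37.0 CPM in public and 210 to 261 CPM in private CD4 cells, and 3 of the 5 fell, C1qa, Lyz2 and Csf1r. The acinar markers summed to 17.0 to 81.9 CPM in public and 17.9 to 556 CPM in private cells, and the B cell markers to 270 to 443 CPM in public and 395 to 862 CPM in private cells. Without barcodes that held at least 2 UMIs of such markers, 145 genes passed, 89 higher and 56 lower, and 6 exhaustion genes rose, 5 follicular helper genes rose and 8 naive and recirculation genes fell.

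In CD8 cells the comparison rested on very few receptors. Replicate 2 had 8 public CD8 cells and was not fitted. The largest clone held 6 of 12 public CD8 cells in replicate 1, 83.4% in replicate 3 and 61.3% in replicate 4. Of 10266 genes, 1102 passed in edgeR's test (10.7%), 440 higher (4.29%) and 662 lower (6.45%), and DESeq2 called 114 genes. The lower genes include at least 9 with 0 UMIs in public CD8 cells. Without the 3 receptors of over 50 cells the public side kept 12 cells in replicate 1 and 14 in replicate 3, and replicate 4 could no longer be fitted. In that smaller fit 0 genes passed in edgeR's test, with 419 at an unadjusted p under 0.05. The loss of the receptors and of a library cannot be told apart there. With receptors matched on CDR3 amino acids alone 2 genes passed, in a fit that also took in replicate 2.

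Within these limits, 12 of 15 exhaustion genes were higher (median log2 fold change 1.01), among them Pdcd1 (1.03), Tigit (1.18), Tox (0.97), Lag3 (0.66) and Havcr2 (1.02, higher in 2 of 3 libraries). Pdcd1 stood higher in the public cells of 3 of 3 libraries, with averages of 244 CPM in public and 120 CPM in private CD8 cells. All 10 cycling genes were higher (median 0.61), and 33.3%, 74.7% and 78.8% of public CD8 cells were cycling in replicates 1, 3 and 4, against 21.5%, 27.1% and 34.6% of private CD8 cells. Of 15 naive and recirculation genes 8 were lower, with S1pr1 (-1.84) and Klf2 (-1.15) in 3 of 3 libraries and Bach2 (-1.27), Tcf7 (-0.68) and Satb1 (-0.71) in 2 of 3. Of 10 interferon genes 8 were lower (median -0.68). DESeq2 called 5 exhaustion and 4 cycling genes higher, 4 naive and recirculation genes lower and 0 interferon genes. The zinc finger factor Ikzf2 was higher, with 279, 410 and 137 CPM in public CD8 cells of replicates 1, 3 and 4, against 120, 87.6 and 73.3 CPM in private CD8 cells (log2 fold change 1.57, edgeR adjusted p = 7.07e-18). This p-value draws on dispersion shared across genes. A single clone held most public CD8 cells in replicate 3, and another did so in replicate 4.

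By the same rule the largest rises in CD8 cells, apart from Ikzf2, were in Gm11454, Hunk, Gm30211, Rhoc, Srgap3, 1700029J03Rik, Prr5l, Ttc16, Tmem159, Neb and Tnip3, with log2 fold changes between 1.62 and 2.34. Srgap3 stood at 59.8, 52.1 and 57.4 CPM in public CD8 cells, against 16.2, 9.78 and 21.4 CPM in private CD8 cells. The largest falls were in Tmem108, Ifitm1, Gm43698, Eng, Gm11695, Oasl2, Gpr15, Gm26771, Gm7967, Eya2, Tns1 and Gm32633. Of these 9 were at 0 UMIs in public CD8 cells, so they entered the test through the private side alone and could only come out as falls.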

How the data were processed

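The authors deposited matrices of raw UMI counts (genes and antibodies by cell), produced by Cell Ranger 4.0.0 per the file headers. Per the submitters' processing notes, mm10 and Seurat were used, in unstated roles. The deposited contig tables give productive chains with UMI counts. No source used here names their software. Cells with exactly 1 productive TRB CDR3 were used, which leaves out 1375 barcodes with at least 2 chains, and no doublet caller was run. mRNA cells needed 500 UMIs, 300 genes, at most 8% mitochondrial UMIs and 1 Cd3 UMI.

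The V-J gap used consensus bases held by 60% of sequences. Library means were compared by exact sign-flip permutation. UMI sums of public and private cells, without 641 receptor segment genes, were tested in edgeR 4.0.16 (filterByExpr, TMM, robust quasi-likelihood, Benjamini-Hochberg) with the replicate as block, since both sides come from the same library. Deviations of the 2 sides from their group means correlated within replicates by 0.141 to 0.465. At least 10 cells a side were needed. DESeq2 1.42.0, other receptor definitions, clone weighting and omissions were alternatives. The fits were tested on simulated data.

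Genes named were the 12 largest rises and falls among those called that moved alike in every library, and a fixed list. The members and gene lists were chosen with earlier results of these data known. Nothing says that the replicates were separate animals, so the exact permutation p-values measure only the spread between libraries. The edgeR p-values also draw on dispersion shared across genes, and large clones weigh heavily in the public sums. Limits for a count of 0 cover counting error only. Results of 1 withheld item are not reported here.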

Additional observations from a re-analysis of the deposited data

Results flagged for a closer look

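In groups of 4 libraries, 6 of 162 sets of values held a library far from the others, and chance flags about 1 set in 20. Klf2 stood at 511 CPM in public CD4 cells of replicate 1, against 332 to 349 CPM in the public cells of the other libraries. Izumo1r was lowest in public CD4 cells of replicate 3, at 289 CPM, with 333 CPM as the next value. Smpdl3b was highest in public CD4 cells of replicate 2 (23.6 CPM, next 13.8 CPM) and lowest in private CD4 cells of replicate 1 (5.17 CPM, next 7.46 CPM). In private CD4 cells Sccpdh was highest in replicate 2 (18.3 CPM, next 15.8 CPM) and Nek6 in replicate 4 (18.8 CPM, next 14.2 CPM).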

How the results depend on the processing

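The mean differences in CDR3 length, V-J gap, nucleotide versions and clone size kept their direction under each alternative run. Without replicate 3 the clone size share was higher on the public side in 2 of 3 libraries. Leaving out 1 replicate gave differences of -0.65 to -0.29 amino acids for CDR3 length, -2.23 to -1.60 bases for the V-J gap, 12.5 to 21.0 percentage points for nucleotide versions and 10.4 to 12.4 for clone size. With CDR3 amino acids alone the difference was 23.4 for nucleotide versions and 3.44 for clone size. The CD4 share, -6.25, turned to 9.001 with 1 cell per clone and 14.9 without the 3 receptors of over 50 cells, and ran from -18.7 to 18.7 without 1 replicate each. Leaving out the 3 receptors, or cells of the CD4 gate with Cd8 UMIs, and 2 further definitions for the segment counts, were chosen after seeing the data. The causes of these moves were not tested.

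Genes called in CD4 cells (289) came to 25 without the replicate block, the unpaired fit, 693 without a filter on low counts, 131 with CDR3 amino acids alone, 167 without the 3 receptors and 145 without other cell markers, and ran from 87 to 401 without 1 replicate each. Genes called in CD8 cells (1102) came to 327 without the replicate block, 114 with DESeq2, 2 with CDR3 amino acids alone, 616 without receptors shared as identical pairs, 0 without the 3 receptors and 426 without cycling cells. They ran from 1214 to 1575 without replicate 1 or 2, and no fit could be made without replicate 3 or 4 or with 1 cell per clone. The TRBV genes called (3) came to 13 with cells in place of receptors (0 higher, 13 lower), 7 without the replicate block and 5 each with CDR3 amino acids alone, with the J gene added and without invariant receptors, and to 3 to 4 without 1 replicate each. The TRBJ genes called (4) came to 1 with cells in place of receptors (0 higher) and to 0 to 3 without 1 replicate each.

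Without the 3 receptors the CD8 fit held 12 and 14 public cells in 2 libraries and can show no direction. The fitted CD8 log2 fold changes that changed sign there, each with an edgeR adjusted p of 1, were Neb -0.16, Bach2 0.085, Havcr2 -8.57 (at 0 counts on the public side, so no measure of size), Satb1 0.30, Xcl1 -0.72, Cxcr3 0.019 and Nt5e 0.75. Cd5 in CD8 cells was 0.14 without cycling cells. The value of Nkg7 in CD4 cells changed sign without replicate 3 (range -0.81 to 1.098 without 1 replicate each). The log2 ratio of TRBV1 was -0.17 and that of TRBV12-2+TRBV13-2 -0.50 with CDR3 amino acids alone, and that of TRBV1 ran from -0.009 without replicate 4 to 1.52 without replicate 3. Of the values of called CD4 genes under the alternatives, 507 stayed past the threshold, 180 did not and none changed sign. Depth limits the public side, with 109 to 189 CD4 cells a library.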
